A study of Danio rerio with 6 samples.

Results

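The genes described here build the entrance to the secretory pathway of the cell and the first step of traffic beyond it. They were taken from both tables by gene symbol: signal recognition particle and receptor, Sec61 translocon with Sec62 and Sec63, translocon-associated proteins (TRAP), signal peptidase, oligosaccharyltransferase (OST), COPII and COPI coats, p24 cargo receptors, KDEL receptors and Sec22 SNAREs. The rule matched 69 of 31953 gene IDs, and it read names only, not values. It also caught 3 IDs of the SEC14L1 family, which belong to lipid-transfer proteins and not to these complexes.

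Livers of adult male zebrafish were sequenced for RNA following 3 weeks in flow-through water with 17β-estradiol (E2, the chief natural estrogen) at 1000 nM, with nonylphenol (NP, a product of surfactant breakdown that binds estrogen receptors weakly) at 100 nM, or with ethanol alone (control). All compounds were given in ethanol, so the vehicle was common to the 3 groups, and no strain, genotype or exact age is stated. Each group had 2 libraries and came from 1 tank of 80 L with 40 fish, so treatment cannot be told apart from tank. The doses of the compounds differ. How many fish a library holds is not stated, so p-values reflect how far these libraries scatter, and that scatter may be technical.

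As background, proteins made for secretion carry a signal peptide that the signal recognition particle binds as it leaves the ribosome. The ribosome is docked at the Sec61 channel of the endoplasmic reticulum (ER), where TRAP assists entry, signal peptidase removes the signal and OST attaches sugar chains. COPII coats then carry cargo toward the Golgi, p24 proteins and KDEL receptors sort it, and COPI coats return material to the ER. The liver secretes most plasma proteins, and in egg-laying vertebrates estrogen makes it secrete vitellogenin, the yolk precursor, also in males.

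The authors' deposited tables give, per comparison, a mean of normalised reads, a log2 fold change with its standard error (SE) and p-values. Whole reads in each library were worked out from those means for 18251 of 18593 genes with reads, all members with reads among them. Which library belongs to which sample is unknown, so each group has a deeper and a shallower library, and values below are given in that order. Levels are reads divided by the library's size factor (normalised reads). Over the recovered genes the control libraries held 457994 and 261410 reads, the E2 libraries 246662 and 19211, and the NP libraries 257031 and 247412. The shallower E2 library stood apart: 1 read in it is worth 6.04 normalised reads, and by itself it lay below both controls in 67.8% of the 3883 genes averaging at least 10 normalised reads. Vitellogenins and estrogen receptors, the check of the exposure, rose for E2 in 9 of 10 genes that have an adjusted p, and for NP in 7 of 9, by the authors' deposited tables. Over all such genes 5.77% passed for E2 and 2.94% for NP, in either direction. Those raised in NP were all vitellogenins. The estrogen receptor gene esr1 was at 6.45 ± 1.30 (log2 ± SE) for E2 and 1.52 ± 1.36 for NP, where the authors' deposited table gives no adjusted p.

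No member passed an adjusted p of 0.05 in either comparison. For E2 it was 0 of the 47 members that the authors' deposited table gives an adjusted p, where 5.77% of all such genes passed. For NP it was 0 of 57 in the authors' deposited table, where 2.94% passed. At an unadjusted p under 0.05, 2 members lay higher in E2 and none lower, against 6.94% of all genes higher and 12.4% lower. In NP 4 members passed that level (all genes 9.03%), 1 higher and 3 lower, against 3.99% and 5.04% of all genes. In E2 it was 2 members against 19.4% of all genes. limma-voom on the recovered reads likewise called 0 of 55 members in both comparisons, where it called 0.017% of 5898 fitted genes for E2 and 0% for NP. At an unadjusted p under 0.05 it had 10 members for E2 (15.5% of all fitted genes) and 2 for NP (8.83%). All that follows on the members describes levels and fold changes that did not pass the adjusted test.

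The members leaned upward in E2 and downward in NP. In the authors' deposited table, 33 of 47 members with an adjusted p had a fold change above 0 for E2 and 14 one below 0, against 44.7% and 55.3% of all genes, with a median log2 fold change of 0.61 against -0.22 over all such genes. Over all 67 members with reads the E2 median was 0.28. From ratios of recovered means it was -0.18 without the deeper E2 library and -0.16 without the shallower control library, so its sign rests on those libraries. For NP, 42 of 57 members were below 0 in the authors' deposited table, against 51.6% of all genes, and 15 were above 0, against 48.4%. Their median was -0.34, against -0.03. The comparisons share their control libraries, and a low control value raises a gene in both.

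Among the 53 members averaging at least 10 normalised reads, both E2 libraries lay above both controls in 16 (all genes 11.3%) and below both in 8 (all genes 33.3%). These counts take 0 reads as 0. Of the 8, sec16b, copg2 and sec22bb had 0 reads in the shallower E2 library. With 3 reads there, sec16b would no longer lie below both controls, while copg2 and sec22bb still would. Both NP libraries lay above both controls in 6 (all genes 23.1%) and below both in 21 (all genes 23%). With 2 libraries against 2, an exact permutation test of 1 gene cannot give a two-sided p under 0.333. Without the shallower E2 library, E2 lay above both controls in 30 members (38.6% of all genes) and below both in 18 (42.4%). Without the deeper control library, NP lay below the other control in 25 members (34.1% of all genes).

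**Figure D1:**
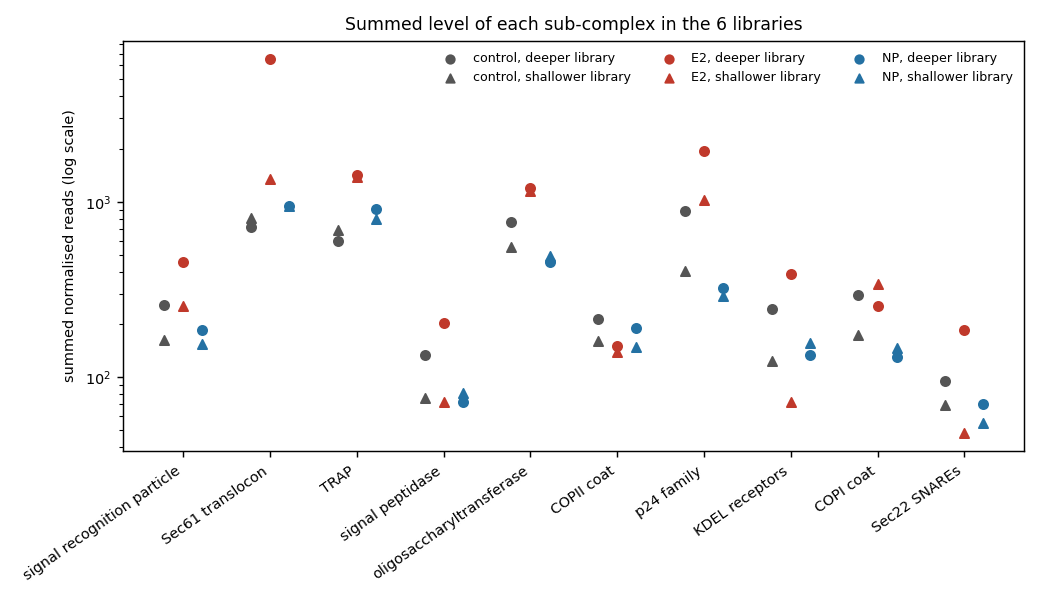
Summed normalised reads (vertical axis, log scale) of the members of each sub-complex in the 6 libraries; grey is control, red E2 and blue NP, circles the deeper and triangles the shallower library of a group. Both E2 libraries lie above both controls for the Sec61 translocon, TRAP, OST and the p24 family, and below both for the COPII coat. Both NP libraries lie below both controls for OST, the p24 family and the COPI coat, and above both for the Sec61 translocon and TRAP. Of the 6363 Sec61 translocon reads in the deeper E2 library, 5539 are of sec61a1. In the NP libraries sec61a1 holds 723 of 943 and 774 of 949 normalised reads of the translocon sum. Among the 6 translocon members both NP libraries lie above both controls only for sec61a1 (all genes 23.1%), and below both for 3 (all genes 23%). These 6 members are too few to be told apart from those shares.

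The signal recognition particle and its receptor were split in E2. srp14, which with srp9 forms the part of the particle that slows translation, had 93 and 23 reads in the controls, against 105 and 8 in E2 and 17 and 11 in NP. As levels these were 39.3 and 15.3 in the control libraries, compared with 107 and 48.3 in E2, and 12.7 and 8.48 in NP, so that the 3 groups did not overlap. The authors' deposited log2 fold changes of srp14 were 1.41 ± 1.11 (SE, adjusted p = 0.546) for E2 and -1.24 ± 0.87 (adjusted p = 0.876) for NP.

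The receptor subunits srpr and srprb anchor the particle at the ER membrane. srpr had 25.8 and 25.3 normalised reads in the control libraries, 138 and 48.3 in E2, and 32.2 and 17.7 in NP. srprb had 26.6 and 28.6 in the controls, against 60.2 and 72.5 in E2, and 25.5 and 24.7 in NP. Both subunits were above the controls in both E2 libraries. The authors' deposited table puts srpr at 1.75 ± 1.08 (adjusted p = 0.394) and srprb at 1.17 ± 1.04 (adjusted p = 0.613) on the log2 scale. srp54, the GTPase that binds the signal peptide, went the other way, with 64.7 and 37.2 in the control libraries, compared with 31.6 and 30.2 in E2 and 45.7 and 33.9 in NP. srp72, srp9 and srp19 had E2 fold changes between 0.00 and 0.30 in the authors' deposited table, and srp68 had at most 10 reads in any library.

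The Sec61 channel held the 2 members with the highest E2 fold changes. sec61a1 (ENSDARG00000021669), a gene for the pore-forming alpha subunit, had 845 and 795 reads in the control libraries, 5539 and 108 in E2, and 965 and 1003 in NP. As levels these were 357 and 528 in the controls, against 5655 and 652 in E2 and 723 and 774 in NP. Every treated library lay above both controls, but the E2 libraries differed from each other 8.67-fold, and the shallower one was below both NP libraries. Its log2 fold change in the authors' deposited table was 2.57 ± 1.17 (p = 0.0273, adjusted p = 0.177) for E2 and 0.72 ± 0.63 (adjusted p = 0.996) for NP. In limma-voom the E2 value was 2.35 ± 0.87 (adjusted p = 0.278), and leaving out each library in turn gave 0.59 to 3.70.

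sec61g (ENSDARG00000018637), the small gamma subunit, had nearly equal levels in the 2 E2 libraries. It had 116 and 43 reads in the control libraries, compared with 239 and 40 in E2, and 79 and 29 in NP. Levels were 49.0 and 28.6 in the control libraries, 244 and 242 in E2, and 59.15 and 22.4 in NP. The E2 mean was 6.26 times the control mean, and the NP libraries lay on either side of the controls. The authors' deposited table gives 2.47 ± 1.01 for E2 (p = 0.0140, adjusted p = 0.121) and 0.06 ± 0.79 for NP (adjusted p = 0.999). In limma-voom without each library in turn, the E2 fold change ranged from 2.31 to 3.08.

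sec61a1l (ENSDARG00000005675), the second alpha subunit gene, lay on opposite sides of the controls in E2 and NP. It had 311 and 119 reads in the controls, against 265 and 41 in E2, and 41 and 35 in NP. Levels were 131 and 79.1 in the control libraries, compared with 271 and 248 in E2, and 30.7 and 27.0 in NP, with no overlap between the 3 groups. The control mean was 3.65 times the NP mean. The authors' deposited table has -1.75 ± 0.71 (p = 0.0138, adjusted p = 0.261) for NP and 1.22 ± 0.996 (adjusted p = 0.570) for E2. In the table of current names both alpha subunit IDs are matched to SEC61A1, and reads that fit both copies may have been split or dropped in the authors' counting.

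The alpha subunit genes therefore took different shares of their joint reads. sec61a1 held 73.1% (95% exact binomial interval 70.4 to 75.6) and 87.0% (84.6 to 89.1) in the controls. In E2 it held 95.4% (94.9 to 96.0) and 72.5% (64.6 to 79.5), and in NP 95.9% (94.5 to 97.1) and 96.6% (95.3 to 97.6). Both NP libraries were above both controls, and the E2 libraries spanned the controls. These shares are of reads, not corrected for transcript length, so they compare libraries and not the abundance of the copies, and the intervals cover counting error only.

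The remaining channel genes also varied between libraries. sec61b, the beta subunit, had levels of 58.3 and 64.5 in the control libraries, 70.4 and 163 in E2, and 52.4 and 23.9 in NP. sec63, which recruits the chaperone BiP to the channel, had 34.7 and 25.9 in the controls, against 157 and 12.1 in E2, and 21.7 and 6.17 in NP. sec62, which assists entry of proteins after their synthesis, had 86.2 and 79.8 in the control libraries, compared with 99.0 and 36.2 in E2, and 56.9 and 95.6 in NP. For sec63 and sec62 the E2 libraries lay on both sides of the controls.

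TRAP was the group in which all 4 subunits had a positive fold change in both comparisons. The summed level was 595 and 692 in the control libraries, 1420 and 1389 in E2, and 916 and 800 in NP, and no 2 groups overlapped. ssr2, the beta subunit, made up most of it, with 420 and 475 normalised reads in the controls, against 1131 and 664 in E2, and 664 and 532 in NP. ssr3 had 73.5 and 81.8 in the control libraries, compared with 131 and 387 in E2, and 71.9 and 95.6 in NP. ssr4 had 85.4 and 114 in the control libraries, 149 and 163 in E2, and 99.6 and 134 in NP. Both E2 libraries were above both controls for these 3 subunits (all genes 11.3%), with fold changes of 0.61 to 1.60 in the authors' deposited table.

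ssr1 (ENSDARG00000101627), the alpha subunit, was the one member with an unadjusted p under 0.05 on the high side in NP. It had 38 and 33 reads in the controls, against 9 and 29 in E2, and 107 and 49 in NP. Levels were 16.1 and 21.9 in the control libraries, compared with 9.19 and 175 in E2, and 80.1 and 37.8 in NP. Both NP libraries lay above both controls. The authors' deposited table has 1.51 ± 0.77 (p = 0.0480, adjusted p = 0.539) for NP. Its E2 value of 1.98 ± 1.29 (adjusted p = 0.430) rests on the shallower library: without it limma-voom gave -0.97.

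**Figure D2:**
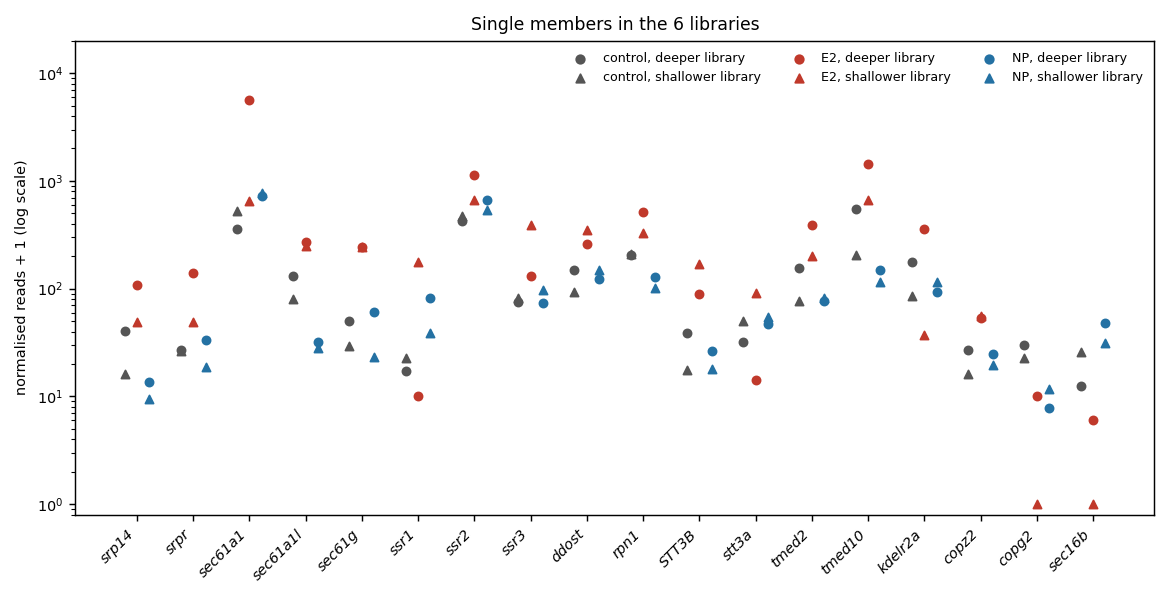
Normalised reads plus 1 (vertical axis, log scale) of 18 members, chosen after their values were seen to show each pattern described, in the 6 libraries; grey is control, red E2 and blue NP, circles the deeper and triangles the shallower library. For sec61a1l, tmed10 and srp14 the E2 points lie above and the NP points below the controls. sec16b shows the reverse order in observed values only. The 0 reads in its shallower E2 library allow up to 3 reads, at 6.04 normalised reads each. At 3 reads that point would lie above the deeper control.

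Signal peptidase had no member with both E2 libraries above both controls (all genes 11.3%). With 4 members, this cannot be told apart from that share. The summed E2 levels of signal peptidase lay on both sides of the controls. In the authors' deposited table its E2 fold changes were split, with 2 members above 0 and 2 below and a median of 0.31. The authors' deposited table has an E2 median of 0.77 over its 3 members with an adjusted p, against 0.61 over all such members. Those 3 leave out spcs1, at -0.54. Its summed level was 133 and 75.8 in the control libraries, 204 and 72.5 in E2, and 72.6 and 81.0 in NP. sec11a, the catalytic subunit, had 46.5 and 21.3 normalised reads in the controls, against 56.1 and 0 in E2, and 12.7 and 17.0 in NP. Its 0 reads in the shallower E2 library allow up to 3 reads, or 18.1 normalised reads. spcs2 and spcs3, noncatalytic subunits, stood in the authors' deposited table at 0.81 ± 1.13 and 0.77 ± 1.09 for E2 (adjusted p = 0.775 and 0.776). For NP the authors' deposited table has them at -0.01 ± 0.82 and -0.19 ± 0.76. spcs1 had at most 14 reads in any library but the deeper control, where it had 43.

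OST, which transfers the preassembled sugar chain onto asparagine, had a summed level of 770 and 552 in the control libraries, compared with 1206 and 1148 in E2, and 454 and 494 in NP. The 3 groups did not overlap. ddost, a noncatalytic subunit, had 150 and 92.4 in the control libraries, 261 and 350 in E2 and 122 and 149 in NP. rpn1 (ribophorin I, which presents substrates) had 206 and 209 in the controls, against 519 and 326 in E2, and 128 and 101 in NP. The NP level of rpn1 was below both controls and the E2 level above them. The authors' deposited table has -0.81 ± 0.65 (adjusted p = 0.959) for NP and 0.96 ± 0.98 (adjusted p = 0.672) for E2.

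The catalytic subunits of OST come in alternative forms: stt3a works at the translocon during synthesis, and STT3B can modify sites that were skipped. STT3B (ENSDARG00000001890) had 90 and 25 reads in the control libraries, compared with 86 and 28 in E2, and 34 and 22 in NP. Its levels were 38.0 and 16.6 in the control libraries, 87.8 and 169 in E2, and 25.5 and 17.0 in NP. Both E2 libraries were above both controls, and the authors' deposited table has 2.05 ± 1.07 (p = 0.0557, adjusted p = 0.274) for E2. stt3a had 31.3 and 49.2 in the controls, against 13.3 and 90.6 in E2, and 45.7 and 54.0 in NP, with the E2 libraries on both sides of the controls.

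The share of stt3a in the reads of this catalytic pair was 45.1% (95% exact binomial interval 37.4 to 53.1) and 74.7% (65.0 to 82.9) in the controls. It was 13.1% (7.18 to 21.4) and 34.9% (21.0 to 50.9) in E2, and 64.2% (53.7 to 73.8) and 76.1% (66.1 to 84.4) in NP. Both E2 shares were below both control shares, while NP overlapped the controls. The other OST members did not share the E2 pattern: dad1 had 131 and 66.5 normalised reads in the controls but 45.9 and 109 in E2, and rpn2 had 39.7 and 61.8 in the controls but 26.5 and 42.3 in E2. ostc had 175 and 56.5 in the control libraries, compared with 252 and 60.4 in E2 and 49.4 and 59.4 in NP.

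**Figure D3:**
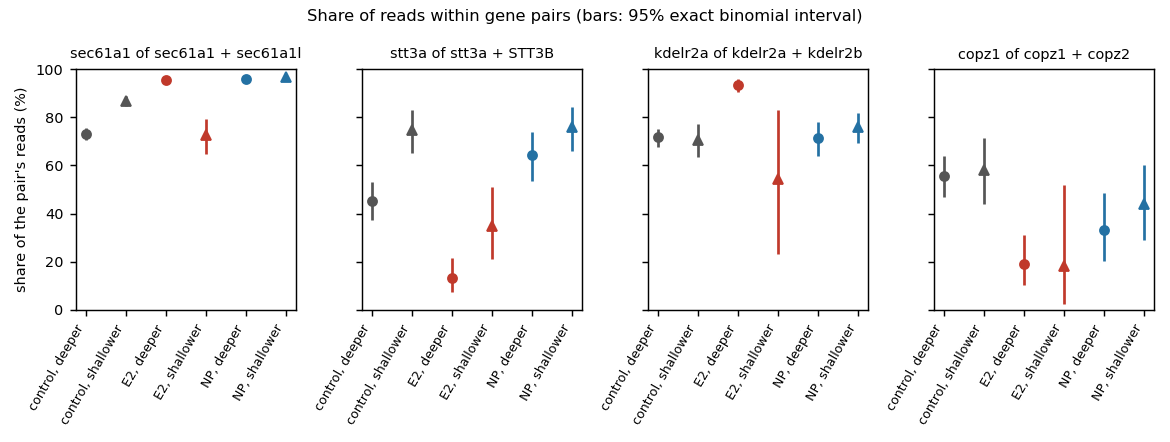
Share of the first gene in the joint reads of 4 gene pairs (vertical axis, percent) in each of the 6 libraries (horizontal axis); bars are 95% exact binomial intervals and cover counting error only. sec61a1 lies above both controls in both NP libraries, and stt3a and copz1 lie below both controls in both E2 libraries.

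The COPII coat, which buds vesicles from the ER, did not lean upward in E2. Of its 7 members with a mean of at least 10, none was above both controls in both E2 libraries (all genes 11.3%). Below both controls were 2 (all genes 33.3%). So few members cannot be told apart from those shares. Its summed level was 216 and 161 in the control libraries, 151 and 139 in E2, and 190 and 149 in NP. sec16b, a scaffold of ER exit sites, had 27 and 37 reads in the controls, against 5 and 0 in E2, and 63 and 39 in NP. These are levels of 11.4 and 24.6 in the control libraries, compared with 5.104 and 0 in E2, and 47.2 and 30.1 in NP. As observed, this is the reverse of the order in sec61a1l. The 0 reads in the shallower E2 library allow up to 3 reads, at 6.04 normalised reads each. At 3 reads sec16b would lie above the deeper control there, so its place among the 2 members below both controls is not established. Its deposited log2 fold changes were -2.04 ± 1.42 (p = 0.151) for E2, where the authors' deposited table gives no adjusted p, and 1.02 ± 0.80 (adjusted p = 0.943) for NP.

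sec24a, a cargo-binding coat subunit, had 27.9 and 27.3 in the control libraries, 8.17 and 12.1 in E2, and 18.0 and 14.7 in NP, below the controls in both treatments. sec13, part of the outer cage, had 43.1 and 17.3 in the controls, against 8.17 and 60.4 in E2, and 16.5 and 10.0 in NP. sec23b, of the inner coat, had 53.7 and 49.9 in the control libraries, compared with 55.1 and 6.04 in E2, and 59.15 and 58.6 in NP. The value of 6.04 is 1 read. Outer coat genes sec31a and sec31b had at most 18 reads in a library, and sec23ip and sec24d at most 22.

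The p24 family, which sorts cargo into vesicles, was led by tmed10 and tmed2. tmed10 (ENSDARG00000041391) had 1293 and 307 reads in the control libraries, 1392 and 109 in E2, and 197 and 147 in NP. Its levels were 546 and 204 in the controls, against 1421 and 658 in E2, and 147 and 113 in NP. The 3 groups did not overlap, though the control libraries differed 2.68-fold. By the authors' deposited table the NP value was -1.43 ± 0.70 (p = 0.0418, adjusted p = 0.514) and the E2 value 1.36 ± 1.06 (adjusted p = 0.543).

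tmed2, the partner of tmed10 in p24 complexes, had 155 and 75.8 in the control libraries, compared with 385 and 199 in E2, and 75.6 and 81.0 in NP. Both E2 libraries were above both controls and the NP libraries were near the lower control. The authors' deposited table has tmed2 at 1.25 ± 1.03 (adjusted p = 0.572) for E2. tmed2 held 22.1% and 27.1% of the joint reads with tmed10 in the controls, against 21.3% and 23.2% in E2, and 33.9% and 41.7% in NP. The share was therefore higher in both NP libraries than in the other 4.

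tmed8 (ENSDARG00000052390) was the scarcest member with an unadjusted p under 0.05. It had 32 and 8 reads in the control libraries, 1 and 0 in E2, and 1 and 2 in NP. The authors' deposited table has -2.36 ± 1.18 (p = 0.0456, adjusted p = 0.532) for NP. tmed9 had 103 and 61.2 normalised reads in the controls, against 86.8 and 42.3 in E2, and 41.9 and 40.1 in NP. tmed7 had 27.0 and 13.3 in the control libraries, compared with 7.15 and 6.04 in E2, and 8.98 and 13.1 in NP. tmed5 had 25.8 and 15.95 in the control libraries, 13.3 and 18.1 in E2, and 33.7 and 26.2 in NP, above the controls in NP. tmed4 had at most 8 reads in a library, and tmed6 had 3 reads in all, in the NP libraries.

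KDEL receptors return escaped ER proteins from the Golgi. kdelr2a had 177 and 85.1 in the controls, against 354 and 36.2 in E2, and 91.3 and 115 in NP. Its E2 libraries lay on either side of the controls and differed 9.78-fold, and the value of 36.2 rests on 6 reads. kdelr2b had 69.7 and 35.2 in the control libraries, compared with 24.5 and 30.2 in E2, and 36.7 and 36.2 in NP. By the authors' deposited table kdelr2b was at -0.88 ± 1.096 for E2 and at -0.50 ± 0.74 for NP (adjusted p = 0.746 and 0.999). Both KDELR3 genes had at most 5 reads in a library.

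The COPI coat was the sub-complex with the lowest NP median in the authors' deposited table among those of the secretory pathway, at -0.90 over 7 members, with 6 of 7 below 0. Its summed level was 294 and 175 in the control libraries, 253 and 338 in E2, and 130 and 147 in NP. Both NP libraries lay below both controls for copb1, cope, copg2 and copz1 (all genes 23%). Whether these 7 members differ from that share was not tested. copg2, a gamma subunit, had 28.7 and 21.9 in the controls, against 9.19 and 0 in E2, and 6.74 and 10.8 in NP. cope, the epsilon subunit, had 55.8 and 22.6 in the control libraries, compared with 47.0 and 151 in E2 and 16.5 and 20.8 in NP.

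The zeta subunits of COPI differed from each other in E2. copz1 had 32.1 and 21.3 in the control libraries, 12.3 and 12.1 in E2, and 11.98 and 14.7 in NP. copz2 had 25.8 and 15.3 in the controls, against 52.1 and 54.4 in E2, and 23.96 and 18.5 in NP. The copz1 share of their joint reads was 55.5% and 58.2% in the controls, against 19.0% and 18.2% in E2, and 33.3% and 44.2% in NP. The share was lower in both E2 and both NP libraries than in the controls, and the shallower E2 value rests on 11 reads (95% exact binomial interval 2.28 to 51.8%).

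The Sec22 SNAREs drive fusion between ER and Golgi membranes. sec22ba had 71.4 and 38.6 in the control libraries, compared with 174 and 48.3 in E2, and 35.2 and 37.0 in NP. sec22bb had 19.0 and 24.6 in the control libraries, 11.2 and 0 in E2, and 23.96 and 12.3 in NP. sec22a had at most 15 reads in a library and sec22c only 2, in the deeper control. Of the SEC14L1 family, sec14l1 had 16 and 11 reads in the controls, against 1 and 0 in E2, and 26 and 10 in NP. SEC14L1 (3 of 3) had 2 and 4 reads in the controls, 0 in E2, and 15 and 9 in NP, and SEC14L1 (2 of 3) had no reads.

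**Figure D4:**
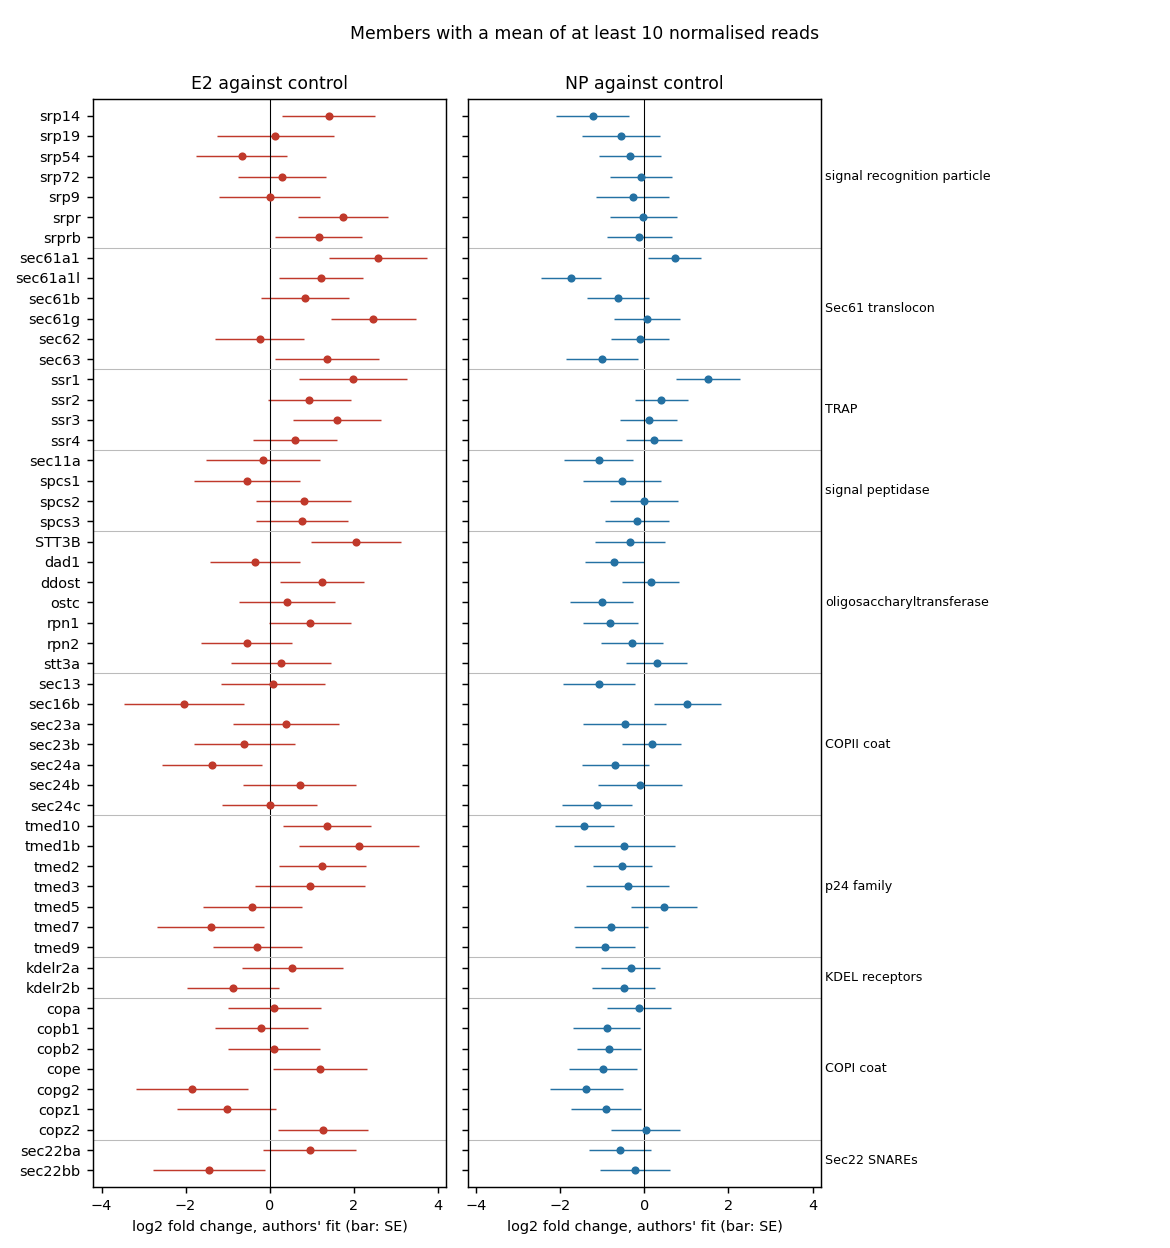
Log2 fold changes (horizontal axis) of the 53 members averaging at least 10 normalised reads, as the authors' deposited tables give them, for E2 (left, red) and NP (right, blue) against control; bars are 1 SE and grey lines part the sub-complexes. TRAP lies right of 0 in both panels, and the COPI members lie left of 0 for NP except copz2.

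The authors' deposited tables do not compare NP with E2, so these groups were compared by limma-voom on the recovered reads, at doses that differ. No member passed an adjusted p of 0.05 (0 of 55 members and 0% of 5898 genes, with 1130 genes at an unadjusted p under 0.05), and the smallest adjusted p of a member was 0.135. At an unadjusted p under 0.05, 10 members were lower in NP, where 8.29% of all genes were, and 1 was higher, where 10.9% were. The 10 were sec61a1l, tmed10, sec61g, rpn1, srp14, STT3B, tmed2, srpr, cope and srprb, and the 1 was sec16b.

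sec61a1l had the lowest p, at -3.17 ± 0.57 (limma-voom adjusted p = 0.135), and its range without each library in turn was -3.26 to -3.08. tmed10 followed at -3.02 ± 0.67 (limma-voom adjusted p = 0.138), and sec61g at -2.73 ± 0.65 (limma-voom adjusted p = 0.146). In levels, E2 means were 8.98 times the NP means for sec61a1l, 7.97 times for tmed10 and 5.96 times for sec61g. sec16b was at 2.89 ± 1.002 (limma-voom adjusted p = 0.217) on 5 E2 reads in all. Both NP libraries lay below both E2 libraries in 26 of 53 members, against 14.3% of all genes, and above both in 8, against 38.3%. The 8 include sec22bb, with 0 reads in the shallower E2 library. With 3 reads there, that library would lie above its shallower NP level of 12.3. Without the shallower E2 library NP lay below in 33 members, against 42.1% of all genes.

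The controls lay between the treatments in 6 members: srp14, srprb, sec61a1l, sec61b, rpn1 and tmed10 were above both controls in both E2 libraries and below both in both NP libraries, against 2.68% of all genes. These come from 4 sub-complexes. The deeper control library was the higher of the controls in 37 of 53 members, where 52.3% of all genes were higher in it. The median fold between libraries of a group over members with reads in both was 1.66 in the controls, 2.104 in E2 and 1.26 in NP.

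Other genes of the pathway were counted from symbol lists. Over all genes with an adjusted p, 5.77% passed for E2 and 2.94% for NP, and 44.7% and 48.4% had a fold change above 0. Of 21 tested translocon and insertion factors none passed for E2 and 16 were above 0, and the authors' deposited table puts their median at 0.70. Of these, tram1, which sits beside the Sec61 channel, had 169 and 69.8 normalised reads in the control libraries, compared with 391 and 441 in E2, and 43.4 and 45.5 in NP. Its 3 groups did not overlap, in the same order as sec61a1l. Its fold changes in the authors' deposited table were 1.67 ± 1.02 (adjusted p = 0.389) for E2 and -1.34 ± 0.73 (adjusted p = 0.619) for NP. In NP btf3, of the same list, went the other way. It had 162 and 333 in the control libraries, 1191 and 223 in E2, and 569 and 597 in NP. The authors' deposited table has btf3 at 1.17 ± 0.66 (adjusted p = 0.670) for NP, and asna1 at 2.01 ± 1.17 (adjusted p = 0.349) for E2.

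Of 16 tested COPII factors and cargo receptors 1 rose for E2, where 5.77% of all genes passed in either direction. This was mcfd2, a cargo receptor subunit that works with LMAN1 on clotting factors. It had 55.4 and 27.3 in the control libraries, 1039 and 230 in E2, and 41.9 and 33.2 in NP. The authors' deposited table has 3.62 ± 1.11 (adjusted p = 0.0274) for E2. For NP none of 21 passed and 18 were below 0 (all genes 51.6%). None passed in either comparison among glycosylation genes outside the members (13 and 23 tested, medians 0.15 and -0.46), COPI factors and Golgi tethers (16 and 24 tested, 0.41 and -0.64), or ER-Golgi SNAREs and Rabs (9 and 20 tested, 0.31 and -0.08), in the order E2, NP, by the authors' deposited tables.

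ER chaperones differed between the control libraries. Of 25 tested for NP, 2 fell and 1 rose, where 2.94% of all genes passed in either direction. The authors' deposited table puts the median of these chaperones at -1.48. hspa5, the chaperone BiP, fell by 3.22 on the log2 scale (SE 0.85, adjusted p = 0.00848), per the authors' deposited table, with levels of 538 and 58.5 in the controls, against 393 and 858 in E2, and 23.96 and 27.0 in NP. calr3b also fell, and pdia2, a disulfide isomerase of the pancreas, rose. The summed level of the recovered chaperones was 3393 in the deeper control and 1000 in the shallower, 1819 and 1933 in E2, and 657 and 885 in NP. The part of this gap between the controls in the NP values of the members was not tested. Among ER stress regulators 1 of 10 rose for E2, where 5.77% of all genes passed, and none of 13 passed for NP. The 1 was trib3 (3.81 ± 1.13 and adjusted p = 0.0227, per the authors' deposited table).

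Markers of other cell types moved with the groups. In bulk liver, fewer cells of a type and less RNA per cell cannot be told apart. Of 19 tested exocrine pancreas markers, 16 rose for NP, and 2 of 13 rose for E2 in the authors' deposited tables. Over the 9 of them with recovered reads the summed level was 5.92 and 55.8 in the control libraries, compared with 49.0 and 290 in E2, and 642 and 1728 in NP. CELA1 (7 of 7) was at 0 reads in controls and E2, and CTRL (3 of 3) in E2 and NP. Macrophage markers fell in 4 of 9 tested for E2 and 6 of 13 for NP, with summed levels of 974 and 600 in the control libraries, 167 and 90.6 in E2, and 114 and 174 in NP. mhc2dab was at 0 reads in NP and mpeg1.2 in E2.

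Reads were recovered for 2 of 21 hepatocyte marker IDs, and both were detected in every group. Their summed levels were 318 and 290 in the controls, against 118 and 127 in E2, and 388 and 283 in NP. Of the 21 hepatocyte markers tested, 4 fell for E2 and 1 for NP by the authors' deposited tables. As a list they leaned in opposite directions: all 21 were below 0 for E2, with a median log2 fold change of -1.94, and 14 were above 0 for NP, with a median of 0.47, by the same authors' deposited tables. Red blood cell markers rose in 3 of 7 for NP and 0 of 2 for E2, with summed levels of 85.8 and 73.1 in the controls, against 29.6 and 103 in E2, and 272 and 640 in NP. Over the 12 of 14 intestinal marker IDs whose reads were recovered, levels summed to 0.42 and 496 in the control libraries, compared with 3.06 and 6.04 in E2, and 3.74 and 3.08 in NP. Of these, vil1, fabp6 and slc15a1b were at 0 reads in E2 and NP. The sum leaves out apoa4b.1, an apolipoprotein gene whose reads were not recovered. The authors' deposited table shows that it fell for E2 (-3.59 ± 1.18, adjusted p = 0.0431), the 1 call among 4 tested. Its NP value was 1.39 ± 0.68 (adjusted p = 0.494) in the other of the authors' deposited tables, and the 5 other intestinal markers tested there were below 0. Of bile duct markers none passed in either comparison, with summed levels of 310 and 198 in the control libraries, 83.7 and 109 in E2 and 115 and 84.1 in NP. agr2 was the one mucus-cell marker with reads, 5 and 1 in the controls and 0 in the other groups. The part of these cell types in the values of the members was not tested.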

How the data were processed

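The members, the gene lists and the tests were chosen with earlier results of these data known. Alignment, counting and testing tools named in the submitters' processing notes are TopHat2, HTSeq and DESeq2, with build GRCz10; versions and settings are not given in the sources used here. Per the labels' protocols, libraries were prepared with a TruSeq kit from DNase-treated total RNA. Results tables of 2 comparisons, E2 with control and NP with control, were used as the authors deposited them. The deposited signal of a gene was taken to be its mean number of normalised reads across the 4 libraries of a comparison. The deposited log2 fold changes and SE come from the authors' fit, and the deposited score of each gene is the fold change divided by its SE. The deposited p-values are two-sided, and adjusted p-values are given from a mean of 12.6 (E2) and 6.64 (NP) upward. The tables have 32760 rows for 31953 gene IDs, and 26121 IDs were found in the table of current names. The design allowed for counts per library, and in their absence the authors' own test was the main result, as the design states.

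Each mean is a sum of whole reads times a fixed step per library. Solving both tables jointly gave exactly 1 set of 6 whole counts for each of 18238 genes with means up to 400, and none of 18233 altered means had a solution. A further 13 genes of higher mean, sec61a1 among them, were solved with the fold change of a rebuilt authors' fit as an added condition. In sec61a1 this kept 1 of 32 sets. The other 342 genes with reads were not recovered. Size factors relative to the shallower E2 library were 5.92 for the deeper E2 library, 14.3 and 9.09 for the controls, and 8.07 and 7.83 for NP. limma-voom (limma 3.58.1, R 4.3.3) was fitted to the recovered reads of 5898 genes averaging at least 5 normalised reads, all 3 groups in 1 fit, with Benjamini-Hochberg adjustment over all of them. It was also run on simulated reads with known changes. Their spread was a set value not taken from these data, so that run does not show its performance here. Ratios of recovered means on the log2 scale used a pseudocount of 1.

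Named genes were members with an unadjusted deposited p under 0.05, the 2 of highest mean in each sub-complex, and, in each list, the genes called or else those of smallest p. Only some of the list genes that this rule gives are described above. Other members were named after their values were seen. Lists covered translocon and insertion factors, glycosylation, ER chaperones, ER stress regulators, COPII factors, COPI factors, SNAREs and Rabs, vitellogenins and estrogen receptors, and markers of exocrine pancreas, hepatocytes, intestine, red blood cells, macrophages, bile duct and mucus cells. Where 0 reads were found, up to 3 reads were allowed for.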

Additional observations from a re-analysis of the deposited data

How the results depend on the processing

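No paired analysis was possible because the labels number no replicates and the recovered libraries cannot be tied to samples. The number of members called was 0 in all 3 comparisons under the alternatives run. These were adjustment over all genes with a p, adjustment over genes with a mean of at least 10, and a threshold of 0.1. The rest were limma-voom and its scaling by summed recovered reads. Both adjustments and the threshold of 0.1 were not run for NP against E2. limma-voom called 1, 0 and 0 of all 5898 genes for E2, NP and NP against E2. With so few calls, a member count of 0 there says little about the members. Scaled by summed recovered reads it called 10, 0 and 58 genes. Fits without 1 library are given below as fold changes only. Among the 25 named members no call changed under adjustment over all genes with a p or under limma-voom. The E2 median of 0.28 ranged from -0.18 to 0.61 when a library was left out, and the NP median of -0.33 from -0.64 to -0.02. Among those 25, limma-voom turned the sign of sec13 for E2 (-0.78) and of sec61g (-0.056) and spcs2 (0.13) for NP. Leaving out a library turned the sign of 6 of the 25 for E2, with ranges of -0.97 to 3.22 for ssr1, -1.66 to 1.21 for sec13, -2.52 to 0.10 for sec23b, -1.65 to 1.53 for kdelr2a, -0.35 to 0.95 for copb2 and -0.038 to 1.73 for sec22ba. For NP it turned the sign of 9 of the 25, with ranges of -0.71 to 0.083 for srp54, -0.22 to 0.078 for srp72, -0.75 to 0.64 for sec61g, -0.53 to 0.87 for spcs2, -0.15 to 0.54 for ddost, -0.98 to 0.047 for tmed2, -0.78 to 0.27 for kdelr2a, -0.92 to 0.051 for kdelr2b and -0.77 to 0.16 for sec22bb. Over all 55 fitted members, limma-voom turned the sign of 7 for E2 and 2 for NP, and leaving out a library that of 24 and 22. The cause was not tested, and a group left with 1 library is assumed to vary like the others. Scaling by summed reads of the recovered genes shifted the median of all fitted genes by -0.25 (E2), -0.06 (NP) and 0.21 (NP against E2). Members above 0 went from 33 to 32, stayed at 13 and went from 18 to 21 of 55. Under that scaling both E2 libraries lay above both controls in 17 members (all genes 11.8%), and both NP libraries lay below both controls in 26 (all genes 26.2%). Leaving out 1 library, an alternative added after seeing the data, gave 16 to 30 members above the controls for E2 (all genes 15.9 to 38.6%) and 25 to 37 below them for NP (all genes 34.1 to 42.3%). The low depth of the shallower E2 library, 19211 reads over the recovered genes alone, limits every E2 value. Levels under 18.1 normalised reads in it rest on fewer than 3 reads.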
